A study of Mus musculus with 6 samples.

Results

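The stromal cells of the control XX ovary at E15.5 were 4327 of the 39350 cells that passed the filters in 6 libraries, 1454 in replicate 1 and 2873 in replicate 2. They were chosen by a gate on measured transcripts and not by clustering. A cell entered the gate with at least 3 unique molecular identifiers (UMIs, single captured mRNA molecules) of *Tcf21* plus *Pdgfra*, under 300 CPM (UMIs of a gene scaled to a total of 1000000 UMIs) of *Foxl2* plus *Fst*, under 2 UMIs of *Upk3b* and under 5 UMIs of *Dazl*. Testis cells had to pass the same gate and, in addition, hold under 4000 CPM of the steroidogenic enzymes *Cyp17a1* plus *Cyp11a1*, which left 11897 control XY cells and 8055 dKO XY cells. No control XX cell reached that steroidogenic limit.

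The study examined the loss of AMH and activin B in the fetal testis by droplet single cell mRNA sequencing (10x Genomics), with 2 libraries per group. Control XY and control XX embryos were *Amh*+/+; *Inhbb*+/+ and dKO XY embryos were *Amh*-/-; *Inhbb*-/-, all on a C57BL/6 background. The control ovary therefore carried no mutant allele. According to the study's methods, both gonads of an animal were pooled, dissociated with enzymes and frozen before capture. How many animals entered a library is not given in the sources used here, so the p-values measure the spread between libraries only.

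Stromal cells of the fetal gonad lie between the supporting cells that surround the germ cells. In the testis they hold the progenitors of Leydig cells and receive the hedgehog ligand DHH from Sertoli cells. In the ovary the steroidogenic theca cells arise only after birth, and WNT signals from the supporting cells and the stroma are known for their part in ovarian development.

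The gate held 27.3% of the filtered cells of control XX replicate 1 (95% exact binomial interval 26.1 to 28.5) and 60.1% of those of replicate 2 (58.7 to 61.5). In the testis libraries the shares were 79.7% and 75.4% (control XY) and 60.3% and 55.1% (dKO XY). The 2 ovary libraries thus differed from each other more than either testis pair did, and replicate 1 held 2598 cells of the pre-granulosa gate against 889 in replicate 2. Of 1655 and 3114 control XX cells with enough *Tcf21* plus *Pdgfra*, 121 and 154 were lost to the *Foxl2* plus *Fst* limit, 63 and 78 to *Upk3b* and 19 and 21 to *Dazl*. The median stromal cell held 21145 and 18590 UMIs, and the summed stroma held 34340246 and 66522064 UMIs per library, against 96675838 to 140413663 in the testis libraries. Each pair of libraries shared 0 to 10 gated barcodes. *Xist*, the transcript of the inactive X chromosome, was at 1243 and 999 CPM in the stroma and at or below 0.166 CPM in every testis library. Over all filtered cells *Amh* was measured at 102 and 174 CPM (control XY), 9.02 and 11.2 CPM (dKO XY) and 0.824 and 0.481 CPM (control XX). *Inhbb* was at 19.3 and 31.3, 11.7 and 17.8, and 24.5 and 8.25 CPM in the same order. Both dKO XY values lay below both control XY values, and the control XX values overlapped both groups. In gated cells control XY (3.23 and 7.23 CPM) and dKO XY (4.76 and 8.02 CPM) overlapped. Whether the counted 3′ ends lie in the deleted parts is not given in the sources used here.

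The 5 markers that came with the label were all detected. *Tcf21*, a transcription factor of visceral mesenchyme, was at 556 and 799 CPM in the control XX stroma, and *Pdgfra*, a growth factor receptor of mesenchymal cells, at 229 and 206 CPM. Both chose the cells, so their levels are a description. *Lum*, a small proteoglycan of collagen fibrils, was at 140 and 261 CPM and the matrix protein gene *Postn* at 38.3 and 49.95 CPM. *Crabp1*, a cytoplasmic binding protein of retinoic acid, was at 93.9 and 88.1 CPM. Endothelial cells of the same libraries, a type that should lack these genes, had 0.130 and 1.66 CPM of *Lum*, 1.04 and 0.949 CPM of *Postn*, and 0 and 0.711 CPM of *Crabp1*. After every cell was thinned to 6000 UMIs, *Lum* was found in 32.4% and 43.2% of stromal cells, *Postn* in 16.7% and 21.2% and *Crabp1* in 23.97% and 24.6%, against at most 0.952% of endothelial cells of the same libraries (median depths before thinning 29756 and 30094 UMIs). *Crabp1* was found in 18.3% and 17.3% of the cells with *Lum* and in 26.7% and 30.1% of those without it, whereas *Postn* was found in 23.99% and 29.8% of the cells with *Lum* and in 13.3% and 14.6% of those without.

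**Figure D1:**
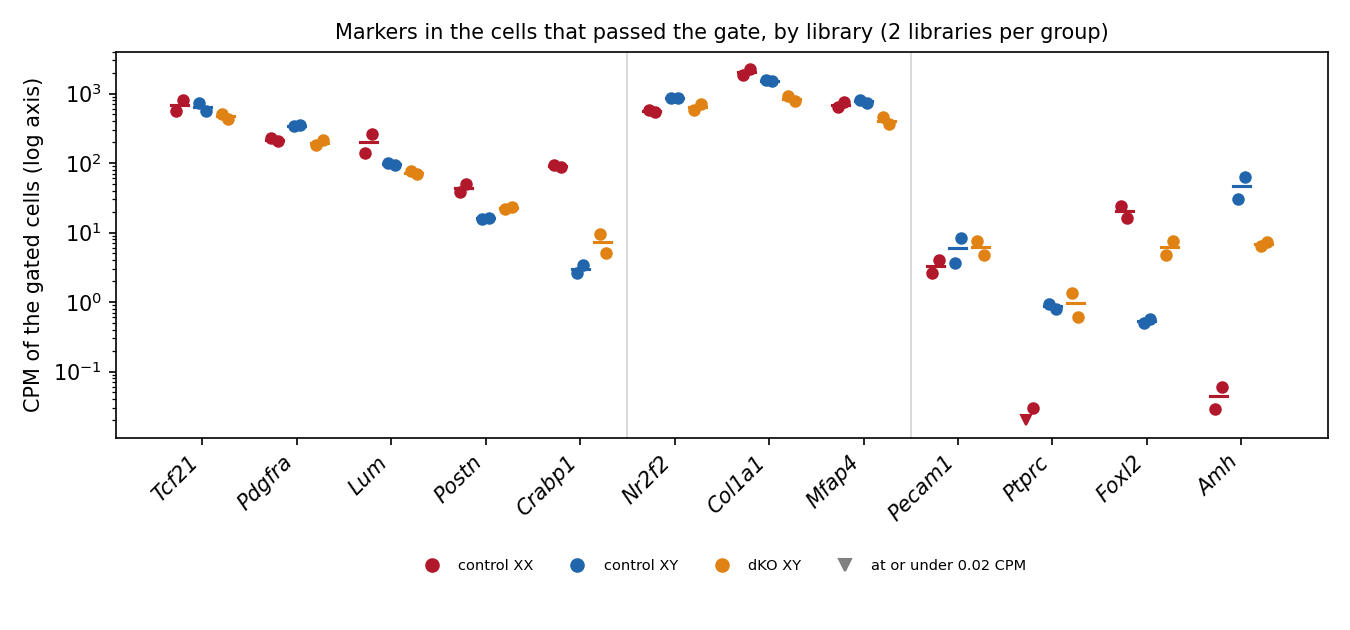
CPM of 12 genes (log axis) in the gated cells of each of the 6 libraries, with a bar at the mean of each group and a triangle for values at or under 0.02 CPM. *Crabp1* lay at 88.1 CPM or more in both control XX libraries and at 9.42 CPM or less in the 4 testis libraries, while *Ptprc* of immune cells was at most 0.0301 CPM in control XX.

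Cells just inside and just outside the limit of 3 UMIs both held stromal transcripts. There were 56 and 106 control XX cells with exactly 3 UMIs of *Tcf21* plus *Pdgfra* and 56 and 110 with 2 UMIs that met the other limits. *Lum* was at 158 and 491 CPM just inside and 141 and 412 CPM just outside, against 140 and 261 CPM over all gated cells. *Postn* was higher just outside (78.0 and 138 CPM) than just inside (49.1 and 88.2 CPM) and over all gated cells (38.3 and 49.95 CPM). *Crabp1* was at 34.1 and 52.2 CPM inside and 33.0 and 42.2 CPM outside, against 93.9 and 88.1 CPM over all gated cells. Cells with no UMI of either gene had 2.72 and 18.8 CPM of *Lum* and 3.11 and 5.00 CPM of *Crabp1*. *Kctd14*, a transcript of pre-granulosa cells, was at 586 and 200.1 CPM just inside, 584 and 250.01 CPM just outside and 429 and 356 CPM in cells with no UMI of either gene, against 208 and 125 CPM over all gated cells. Cells at the limit thus also held more *Kctd14* than the gated cells as a whole. *Foxl2*, which the gate itself limited, was at 25.8 and 10.6 CPM just inside and 30.3 and 12.6 CPM just outside. Over all gated cells it was at 23.9 and 16.5 CPM, so it did not go the same way in both libraries. The gate therefore does not hold every cell of the ovary with stromal transcripts.

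Among the transcripts at 50 CPM or more in the stroma, the 15 with the highest ratio to all other filtered ovarian cells are given as a description, since the gate sorted these cells. *Syt1*, a calcium sensor of vesicle release, led with 68.3 and 60.6 CPM against 1.84 and 3.85 CPM in the other cells, a ratio of 37.0 and 15.8. The gate genes *Tcf21* and *Pdgfra* were among the 15. *Frem1*, a basement membrane protein, was at 79.4 and 67.7 CPM against 4.15 and 6.14 CPM. *Sfrp1*, a secreted WNT inhibitor, was at 622 and 657 CPM against 24.03 and 66.2 CPM. The transcription factor genes *Osr1* and *Snai1*, the neurotrophin receptor gene *Ngfr*, the steroid-inactivating enzyme gene *Hsd11b2*, the matrix genes *Mfap4* and *Itih5*, and *Islr*, *Dnm3os*, *Cyp1b1* and *Lum* made up the rest. The ratio was lower in replicate 2 than in replicate 1 for each of the 15. This ranking sets the stroma against other ovarian cells only. Beside control XY gated cells some of the 15 were lower, as *Hsd11b2* at 61.5 and 60.5 against 166 and 172 CPM. Others were higher, as *Syt1* against 27.8 and 24.7 CPM in control XY.

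The control XX stroma was compared with the gated cells of the control XY testis, which met the same limits and the steroidogenic one. In the study's own clusters most control XY cells were interstitial and few were stroma. Control XX had many stroma cells and few interstitial ones. The 2 gated sets may thus hold different kinds of mesenchyme, and the part of this in the fold changes was not tested. The test took in 17229 genes and called 23.5% of them, with 1877 higher in the stroma of the ovary (10.9%) and 2164 lower (12.6%), by edgeR's quasi-likelihood test with Benjamini-Hochberg adjustment, the source of all adjusted p-values given here. The 8 genes of the gate were not tested. The shares of 10.9% and 12.6% are the background for every count by list against control XY below. Without control XY replicate 1 the test called 2415 genes and without replicate 2 it called 2306, against 4041 with both.

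*Crabp1*, encoded at chr9:54764748-54773110 (GRCm38), rose most of the genes with an average log2 CPM of 5 or more by edgeR, with *Xist*, *Tsix* and the Y-linked genes set aside. This average is close to the log2 of the mean level over the 6 libraries, so that a high level in 1 group can carry a gene past the limit. With the limit on the mean of the 6 log2 values instead, 5 of the 12 largest rises and 3 of the 12 largest falls stayed among them, *Crabp1* and *Hhip* did not, and *Atp1b1* and *Sostdc1* led. It was at 2.62 and 3.38 CPM in control XY, 30.3 times below the mean of the ovary (log2 fold change 5.00 ± 0.31 SE, adjusted p = 4.5e-05). *Atp1b1*, the beta subunit of the sodium pump, was at 186 and 179 CPM in the stroma of the ovary and 11.2 and 14.04 CPM in control XY (3.93 ± 0.13, adjusted p = 3.8e-06). The matrix protein gene *Tgfbi* was at 271 and 245 CPM against 18.3 and 23.5 CPM (3.70 ± 0.15, adjusted p = 7.2e-06). These genes were picked for the size of their rise, so the gap between the groups is a description. In each of them the 2 libraries of a group were close to each other.

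Other large rises, with log2 fold changes from 2.49 to 4.21, were those of the heparan sulfate-trimming sulfatase *Sulf1*, the potassium channel *Kcnk2*, the irisin precursor *Fndc5*, the transcription factors *Gata6* and *Prrx1*, the dominant-negative helix-loop-helix proteins *Id2* and *Id3*, and the clone-named transcript *RP23-41J14.2* (83.5 and 86.7 against 4.44 and 5.29 CPM). *Atp1b1*, *Sulf1*, *Gata6*, *Fndc5*, *Id2* and *Id3* were also at 163 CPM or more in both pre-granulosa sets of the ovary, whereas *Prrx1* was at 1.89 and 2.69 CPM there against 95.8 and 92.5 CPM in the stroma. The endothelial cells of the ovary had 0.649 and 1.66 CPM of *Prrx1* and 27.1 and 12.6 CPM of *Gata6*. *Prrx1*, a factor of limb and craniofacial mesenchyme, was thus low in both neighbouring cell sets.

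**Figure D2:**
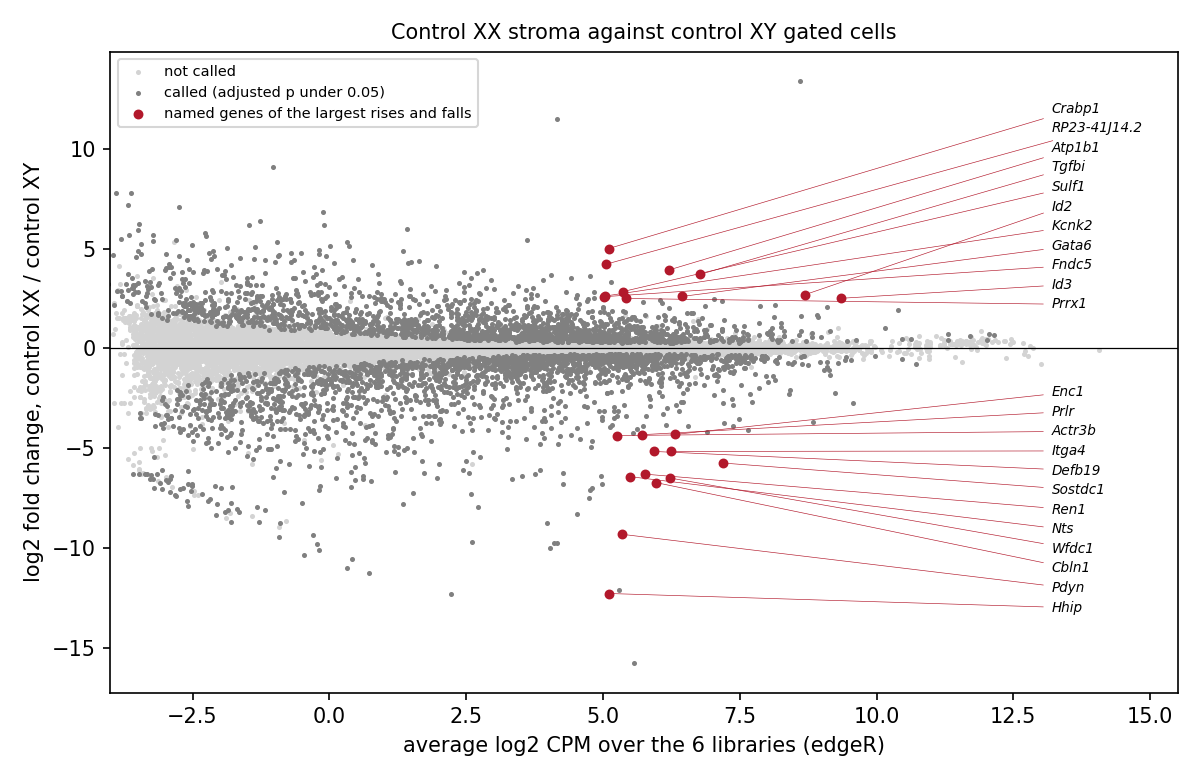
Log2 fold change of each of the 17229 tested genes between the control XX stroma and control XY gated cells (y axis) against edgeR's average log2 CPM over the 6 libraries (x axis), with dark grey points for called genes and labelled red points for genes named from the 12 largest rises and 12 largest falls, with *Xist*, *Tsix* and Y-linked genes set aside. *Crabp1* stands at 5.00 and *Hhip*, with 1 UMI in the ovary libraries, stands lowest of the red points, where the plotted value depends on the prior count.

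The 12 largest falls were of transcripts at or below 7.02 CPM in the ovary. *Hhip*, a membrane antagonist of hedgehog ligands and a target of the pathway, had 0 and 1 UMIs in the control XX stroma and was at 58.0 and 60.8 CPM in control XY. Its ratio was 5997 with an exact interval for counting error from 1076 to 236856 (adjusted p = 1.6e-06). *Pdyn*, the precursor of dynorphin peptides, was at 0.0291 and 0.150 CPM against 73.0 and 76.2 CPM, 832 times lower. *Cbln1*, a secreted synapse organizer, was at 0.786 and 0.616 against 73.0 and 81.3 CPM, and the renin gene *Ren1* at 0.961 and 0.601 against 65.4 and 59.0 CPM. These 4 genes were picked for the size of their fall, so the gap between the groups is a description and no separate support.

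*Sostdc1*, a secreted inhibitor of BMP and WNT signals, fell from 338 and 291 CPM in control XY to 7.02 and 4.31 CPM in the ovary (-5.75 ± 0.25, adjusted p = 9.5e-06). The integrin subunit gene *Itga4* was at 3.44 and 2.72 against 113 and 118 CPM. The prolactin receptor gene *Prlr* was at 4.98 and 4.71 against 106 and 99.5 CPM. *Wfdc1*, *Nts*, *Enc1*, *Actr3b* and *Defb19* completed the 12, with control XX levels of 0 to 6.57 CPM. *Defb19* is a transcript of Sertoli and pre-granulosa cells, at 152 CPM in the endothelial cells of control XY replicate 1, above the 71.6 CPM of its gated cells.

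The hedgehog targets *Ptch1*, *Gli1* and *Hhip* and the transducer *Gli2* fell in the stroma of the ovary, while the transducers *Smo*, *Gli3* and *Sufu* did not pass the test. Of 16 hedgehog genes listed 15 were tested, 1 rose and 6 fell in the ovary, and the median log2 fold change was -0.22 (all tested genes: -0.0038, background 10.9% higher and 12.6% lower). Without either dKO XY library 3 rose, and without control XX replicate 2 it was 2. The membrane receptor and target *Ptch1* was at 21.6 and 13.4 CPM in the stroma of the ovary and 265 and 285 CPM in control XY (-3.92 ± 0.19, adjusted p = 1.7e-05). The transcription factor and target *Gli1* was at 7.13 and 6.37 against 44.0 and 48.6 CPM. *Gli2* fell from 26.5 and 31.4 to 17.2 and 14.4 CPM, a call lost without control XY replicate 2 (adjusted p = 0.057) or without control XX replicate 2 (0.069). The transducer *Smo* was at 101 and 89.2 against 98.9 and 101 CPM and *Gli3* at 39.2 and 30.4 against 26.0 and 31.0 CPM. *Gas1*, a coreceptor of hedgehog ligands, rose to 919 and 879 CPM from 342 and 297 CPM (1.57 ± 0.28, adjusted p = 0.0063), and was also at 432 and 328 CPM in the pre-granulosa set. The ligand *Dhh* was at 0.146 and 0.0451 CPM in the stroma of the ovary. In control XY it was at 3.32 and 6.38 CPM in gated cells and at 19.9 CPM in endothelial cells of replicate 1. *Ptch1* was found in 10.2% and 7.32% of thinned stromal cells of the ovary, below the 14.1% and 11.4% of endothelial cells of the same libraries (immune cells: 10.7% and 2.33%), and in 67.0% and 70.3% of control XY gated cells.

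**Figure D3:**
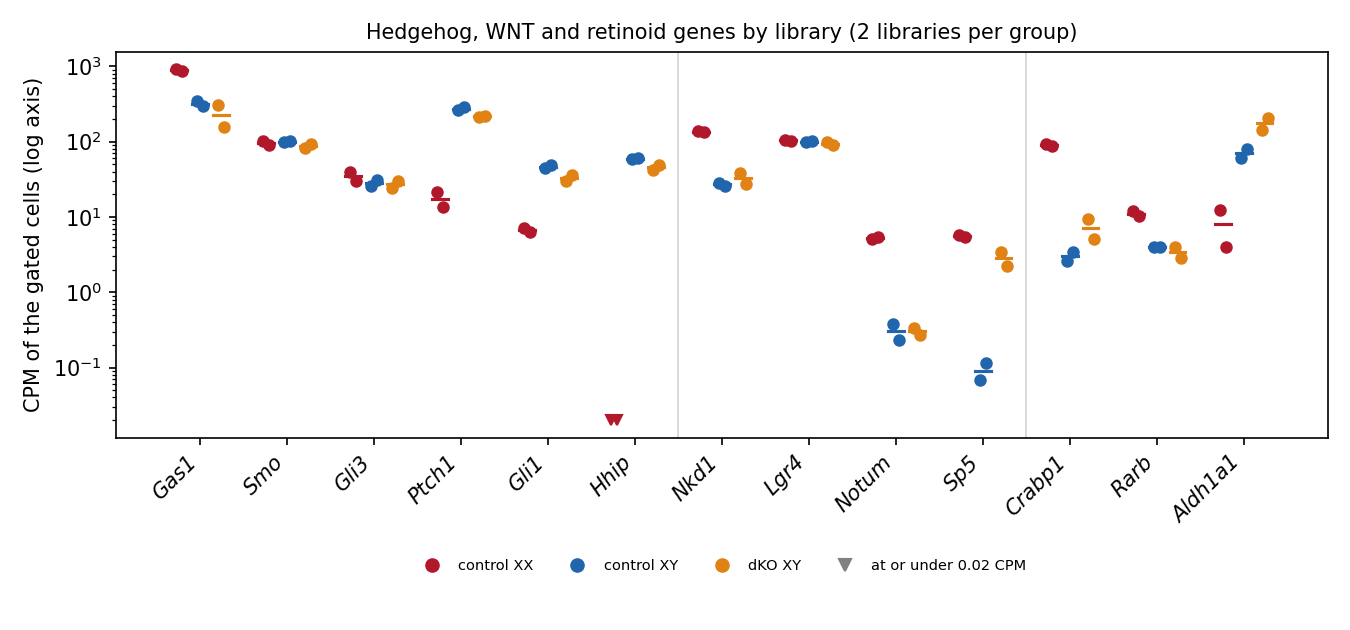
CPM (log axis) of 6 hedgehog genes, 4 WNT genes and 3 retinoid genes in the gated cells of each library, with a bar at the mean of each group and a triangle for values at or under 0.02 CPM. *Ptch1*, *Gli1* and *Hhip* are lowest in the 2 control XX libraries, *Smo* lies between 81.2 and 101 CPM in all 6, and *Nkd1*, *Notum* and *Crabp1* are highest in control XX.

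WNT genes rose more often than they fell. Of 37 tested, 19 rose and 8 fell, with a median of 0.60. Fewer WNT genes were called higher when any control library was left out. *Nkd1*, an intracellular WNT inhibitor that the pathway itself induces, was at 137 and 134 CPM in the stroma of the ovary and 28.5 and 25.7 CPM in control XY (2.40 ± 0.17, adjusted p = 8.6e-05). The secreted WNT deacylase *Notum*, another induced inhibitor, was at 5.04 and 5.46 against 0.381 and 0.235 CPM (4.17 ± 0.29). *Sp5*, a transcription factor gene and direct WNT target, was at 5.71 and 5.49 against 0.0686 and 0.114 CPM (5.99 ± 0.34). Pre-granulosa cells of the ovary had 90.5 and 106 CPM of *Sp5* but 1.32 and 1.75 CPM of *Notum*, and endothelial cells 2.08 and 0.949 CPM and 0.390 and 0 CPM. The pathway factor genes *Lef1* and *Tcf7* and the feedback inhibitors *Axin2*, *Rnf43* and *Znrf3* rose as well, with *Axin2* at 34.1 and 23.5 against 18.5 and 17.2 CPM. *Axin2* was not called without control XY replicate 2 (adjusted p = 0.067), nor *Znrf3* without either control XY library or without control XX replicate 1 (0.051 to 0.136). The secreted inhibitor *Sfrp1* rose from 402 and 391 CPM to 622 and 657 CPM (0.77 ± 0.13).

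Among the ligands, *Wnt5a* fell from 332 and 335 to 219 and 188 CPM (-0.64 ± 0.09, adjusted p = 0.0023) and *Wnt2* from 1.18 and 1.14 to 0.116 and 0.135 CPM. *Wnt11* rose to 15.6 and 21.8 CPM from 5.53 and 6.09 CPM and *Rspo1*, an enhancer of WNT signals, to 27.8 and 26.1 from 14.8 and 12.2 CPM. The receptor genes *Fzd7*, *Ror1* and *Ror2* rose, whereas *Lgr4* was at 105 and 102 against 97.9 and 101 CPM and did not pass. *Wnt4* was at 417 and 352 against 297 and 304 CPM (0.43 ± 0.12, adjusted p = 0.035), and its adjusted p ran from 0.056 to 0.198 under 8 alternatives. *Rspo1* and *Wnt4* were at 242 CPM or more in both pre-granulosa sets, and the part of free RNA in their values was not tested.

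The upstream sequences of *Hhip*, the lowest of the 12 falls, and *Sp5*, which rose most among the WNT genes, are printed below with that of *Crabp1*, the marker with the largest rise. Each is the 250 bases before the RefSeq transcript start on the strand of the gene, from GRCm38.p6. *Hhip* is on the minus strand of chromosome 8 (chr8:80058009-80058258), *Sp5* on the plus strand of chromosome 2 (chr2:70474673-70474922) and *Crabp1* on the plus strand of chromosome 9 (chr9:54764498-54764747). They were searched on both strands for GACCACCCA, the core that GLI factors bind, and for ATCAAAG, a core of the TCF and LEF factors, and matches are in capitals.
Hhip: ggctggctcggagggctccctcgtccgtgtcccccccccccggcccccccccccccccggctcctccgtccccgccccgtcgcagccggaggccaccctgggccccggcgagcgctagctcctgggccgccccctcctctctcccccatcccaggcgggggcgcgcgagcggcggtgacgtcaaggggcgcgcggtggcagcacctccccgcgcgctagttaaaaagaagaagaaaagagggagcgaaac
Sp5: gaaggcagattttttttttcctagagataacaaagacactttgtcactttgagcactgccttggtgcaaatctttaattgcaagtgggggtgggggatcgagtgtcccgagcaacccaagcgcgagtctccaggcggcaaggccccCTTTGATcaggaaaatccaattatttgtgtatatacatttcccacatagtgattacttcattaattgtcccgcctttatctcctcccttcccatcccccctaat
Crabp1: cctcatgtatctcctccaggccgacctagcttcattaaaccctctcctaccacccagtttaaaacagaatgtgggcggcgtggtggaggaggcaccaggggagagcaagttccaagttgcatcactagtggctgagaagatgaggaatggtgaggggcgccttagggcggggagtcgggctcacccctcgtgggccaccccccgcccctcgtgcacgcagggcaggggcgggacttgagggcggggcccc
ATCAAAG was in 3.21% of the 32851 RefSeq windows of this length and in 3 of the 36 windows of the 28 WNT genes with an entry, those of *Sp5*, *Wnt11* and *Wnt5b*. GACCACCCA was in 0.225% of all windows and in none of the 13 windows of 12 hedgehog genes. A match describes the letters of these windows and shows no binding.

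Of 19 retinoid genes listed 17 were tested, 6 rose and 4 fell, with a median of 0.09. Leaving out any 1 control library left 1 or 2 that fell, and 4 rose without control XY replicate 1 or without control XX replicate 2. The nuclear receptor genes *Rarb* (11.9 and 10.2 against 4.02 and 3.97 CPM) and *Rarg* (14.2 and 12.6 against 8.63 and 7.28 CPM) rose, while *Rara* was at 44.9 and 39.7 against 41.3 and 42.4 CPM. The retinoic acid-making enzymes *Aldh1a2* (14.97 and 12.4 against 23.2 and 19.1 CPM) and *Aldh1a1* (12.2 and 3.94 against 61.3 and 80.6 CPM) fell, as did the degrading enzyme *Cyp26b1* (2.59 and 2.44 against 5.90 and 8.72 CPM). *Aldh1a2* was not called without control XY replicate 1 or without control XX replicate 2 (adjusted p = 0.134 and 0.114), and *Cyp26b1* not without control XY replicate 2 or without either control XX library (0.069 to 0.112). *Aldh1a1* was at 65.4 CPM in the endothelial cells of control XY replicate 1, where the gated cells had 61.3 CPM.

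Transcription factors of the stroma moved both ways. Of 40 tested, 15 rose and 14 fell, with a median of 0.22. *Tbx3*, a T-box repressor, rose to 59.5 and 52.2 CPM from 10.5 and 10.2 CPM (2.51 ± 0.09, adjusted p = 5.3e-06), and *Maf* rose to 396 and 336 from 223 and 228 CPM. *Nfia* was at 495 and 514 against 336 and 343 CPM (0.65 ± 0.10). *Osr2*, an odd-skipped zinc finger gene, fell to 13.6 and 8.66 CPM from 212 and 207 CPM (-4.18 ± 0.21, adjusted p = 1.7e-05). *Nr2f2*, the orphan receptor often used to mark gonadal interstitium, was at 579 and 534 against 870 and 867 CPM (-0.57 ± 0.12, adjusted p = 0.011), and was not called without either control XY library (adjusted p = 0.080 and 0.082). It was found in 92.7% and 92.1% of thinned stromal cells of the ovary and 97.4% and 97.4% of control XY cells.

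The *Hox* genes, which mark position along the body axis, rose more often than they fell. Of 39 in the files 32 were tested, 21 rose and 3 fell, and the median log2 fold change was 0.96. The summed level of the 39 was nevertheless lower in the ovary, at 509 and 510 CPM against 618 and 571 CPM in control XY. Fewer *Hox* genes were called higher when any control library was left out. *Hoxa3* was at 14.2 and 12.7 CPM against 1.23 and 2.14 CPM (3.07 ± 0.25, adjusted p = 1.5e-04) and *Hoxa5* at 15.7 and 16.3 against 2.32 and 4.66 CPM (2.27 ± 0.29). *Hoxa2* and *Hoxa4* rose from levels at or under 0.933 CPM. *Hoxc8* rose to 75.9 and 77.1 from 49.8 and 47.9 CPM. The 3 that fell were *Hoxd8* (37.0 and 38.7 against 122 and 106 CPM), *Hoxd9* (84.7 and 80.4 against 194 and 177 CPM) and *Hoxd10* (30.8 and 31.3 against 65.9 and 55.4 CPM). Endothelial cells of the ovary had 20.4 and 24.9 CPM of *Hoxa3* and 21.8 and 34.4 CPM of *Hoxa5*, above the stroma, and those of control XY replicate 1 had 17.8 and 13.9 CPM, above the gated cells of that library.

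**Figure D4:**
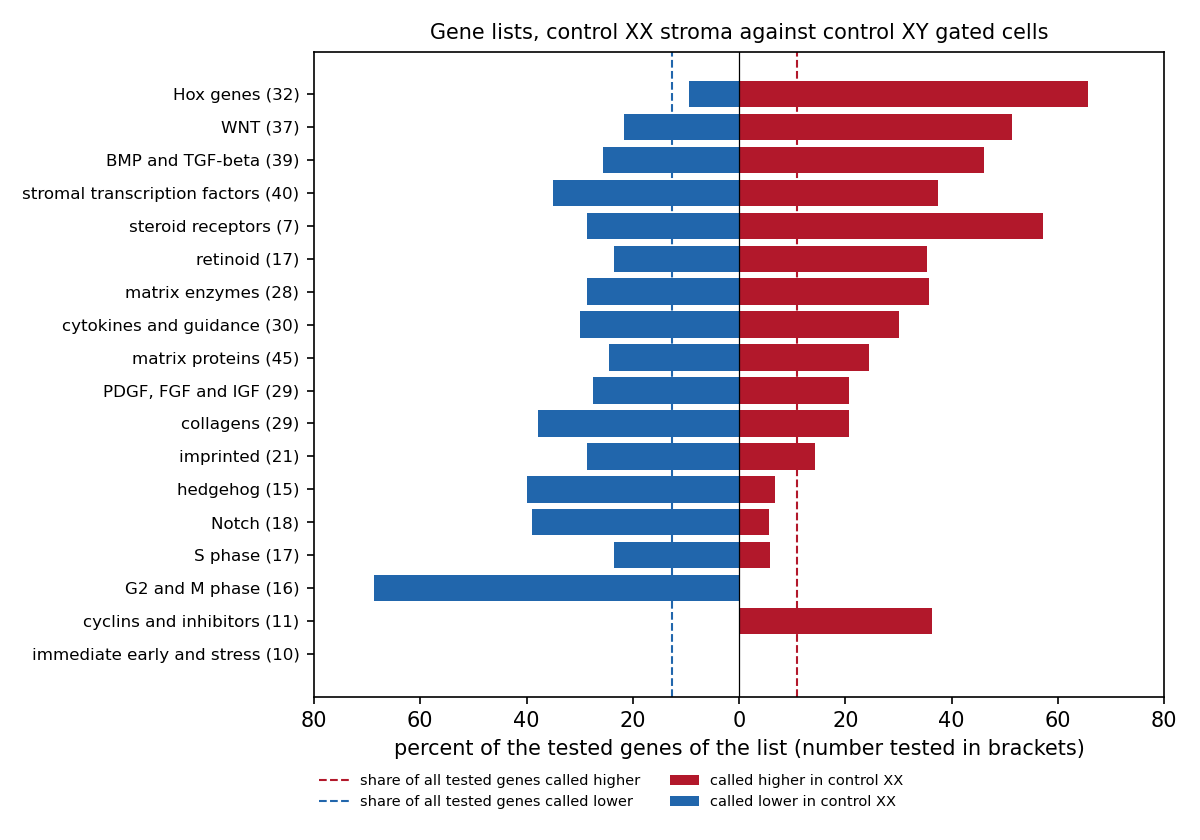
Percent of the tested genes called in 18 lists of pathway, matrix, transcription factor and cell state genes, without the lists of cell type markers, as higher (red, right) or lower (blue, left) in the control XX stroma than in control XY gated cells, with the share of all tested genes as dashed lines at 10.9% and 12.6%. Of these 18, the *Hox*, WNT and steroid receptor lists reach furthest to the right, the G2 and M phase list furthest to the left, and the immediate early and stress list holds no called gene.

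Collagens fell more often than they rose, with 6 higher and 11 lower of 29 tested and a median of -0.27. Without control XY replicate 1 there were 3 and 10. The 3 chains of fibrillar collagens I and III did not pass. *Col1a1* was at 1828 and 2250 against 1549 and 1500 CPM (adjusted p = 0.061), *Col1a2* at 1518 and 1436 against 1847 and 1901 CPM and *Col3a1* at 2293 and 2017 against 2016 and 1979 CPM. The basement membrane chain *Col4a1* fell to 163 and 138 CPM from 1015 and 1089 CPM (-2.73 ± 0.17, adjusted p = 4.2e-05), and *Col15a1* to 15.49 and 14.8 from 89.6 and 99.5 CPM. Endothelial cells of the ovary had 1877 and 1583 CPM of *Col4a1*.

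Of 45 matrix proteins tested 11 rose and 11 fell, with a median of -0.08, and without either control XY library 7 rose and 10 fell. *Sparcl1* rose to 624 and 535 CPM from 131 and 142 CPM (2.16 ± 0.11) and *Mgp*, an inhibitor of calcification and of BMPs, to 660 and 713 from 228 and 238 CPM (1.64 ± 0.17). The large proteoglycan *Vcan* fell to 49.8 and 36.4 from 249 and 271 CPM (-2.53 ± 0.15, adjusted p = 3.9e-05). *Lum* was 2.08 times higher in the ovary (1.15 ± 0.28, adjusted p = 0.022) but was not called without either control XY library (adjusted p = 0.068 and 0.092), and *Postn* was 2.76 times higher (1.55 ± 0.16, adjusted p = 4.0e-04). Of 28 matrix enzymes and inhibitors 10 rose and 8 fell, with a median of -0.0031, against 5 to 8 that rose and 4 or 5 that fell when any 1 control library was left out. The protease gene *Mmp2* rose to 312 and 276 from 142 and 148 CPM and the crosslinking enzyme *Loxl1* to 174 and 169 from 105 and 111 CPM. *Adamts5*, a protease that cleaves versican, fell to 17.7 and 20.2 from 149 and 136 CPM (-2.83 ± 0.14, adjusted p = 1.7e-05).

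BMP and TGF-beta genes held 18 that rose and 10 that fell of 39 tested, with a median of 0.27. Fewer of them were called higher when any control library was left out. *Id2* was at 840 and 897 CPM against 139 and 147 CPM (2.68 ± 0.35, adjusted p = 0.0014). *Id3* was at 984 and 1501 against 239 and 227 CPM (2.50 ± 0.43, adjusted p = 0.0053), while *Id1* was at 639 and 901 against 474 and 348 CPM and did not pass. The BMP antagonist *Nog* was called at 1.75 and 2.95 against 0.313 and 0.449 CPM, but not without control XY replicate 1 or without control XX replicate 2. *Inhba*, which encodes the subunit of activin A, fell to 25.9 and 20.9 from 430 and 410 CPM (-4.09 ± 0.11, adjusted p = 2.3e-06). *Bmp5* fell to 1.66 and 1.40 from 10.1 and 8.25 CPM. *Inhba* was found in 13.3% and 10.5% of thinned stromal cells of the ovary and in 80.1% and 79.5% of control XY cells, against 0% and 0% of the 206 and 105 thinned endothelial cells and 10.7% and 0% of the 28 and 43 thinned immune cells of the ovary. The share in replicate 1 was thus not far above that of its immune cells.

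Of 29 PDGF, FGF and IGF genes 6 rose and 8 fell, with a median of -0.16. *Igfbp5*, a binding protein of insulin-like growth factors, rose to 2746 and 2184 CPM from 662 and 699 CPM (1.93 ± 0.13, adjusted p = 5.8e-05), and *Igfbp7* fell to 105 and 107 from 510 and 451 CPM (-2.10 ± 0.12). *Pdgfc*, a ligand of PDGFRA, rose to 18.2 and 20.7 from 4.54 and 4.66 CPM. *Igf1* was at 186 and 156 against 170 and 157 CPM. *Fgf10* was at 0.728 and 0.556 against 7.97 and 7.35 CPM and *Fgf7* at 0.146 and 0.165 against 1.80 and 1.49 CPM, and both fell.

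Cytokine, chemokine and guidance genes held 9 higher and 9 lower of 30 tested, with a median of -0.15. *Il33*, an alarmin cytokine, was at 52.1 and 47.5 CPM in the stroma of the ovary and 6.31 and 2.998 CPM in control XY (3.50 ± 0.48, adjusted p = 0.0019), and was found in 23.1% and 21.8% of thinned stromal cells against 2.14% and 1.04%. *Ptn*, a heparin-binding growth factor, rose to 1659 and 1962 from 940 and 987 CPM (0.99 ± 0.16). The chemokine gene *Cxcl12* fell to 55.6 and 75.1 from 963 and 822 CPM (-3.68 ± 0.19, adjusted p = 2.1e-05). *Robo2*, *Sema3c* and *Gdnf* fell as well, by 2.85, 3.84 and 3.46 on the log2 scale.

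Of 18 Notch genes tested 1 rose (*Hey1*, 13.1 and 15.2 against 10.9 and 9.57 CPM) and 7 fell, with a median of -0.38. Only 2 fell without control XY replicate 2, 3 without control XX replicate 1 and 4 without control XX replicate 2, and *Hey1* was called in 1 of these 3 fits, that without control XX replicate 1. Without control XY replicate 1, 7 were called lower and none higher. The target *Heyl* was at 12.3 and 11.97 CPM against 92.6 and 96.4 CPM (-2.88 ± 0.18, adjusted p = 4.6e-05) and the ligand *Jag1* at 10.4 and 15.2 against 44.5 and 42.8 CPM (-1.67 ± 0.19). *Hes1* was at 103 and 206 against 182 and 170 CPM. *Dlk1*, a non-canonical ligand, was at 700 and 1251 against 1334 and 1084 CPM, and in both *Hes1* and *Dlk1* the groups overlapped.

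Leydig cell genes fell in the ovary, as 9 of 10 fell and none rose, with a median of -1.57. The steroidogenic limit alone had left out 172 and 221 control XY cells and kept those below it. The testis levels of these genes thus depend on where that limit was set, and other settings of it were not tested. *Star*, which delivers cholesterol to mitochondria, was at 2.59 and 2.98 CPM against 8.61 and 11.2 CPM (-1.73 ± 0.20, adjusted p = 7.8e-04). *Hsd3b1* was at 2.15 and 0.646 against 19.5 and 22.0 CPM, and the electron donors *Fdxr* (23.2 and 19.3 against 71.6 and 75.1 CPM) and *Fdx1* (55.6 and 67.1 against 118 and 110 CPM) fell less. *Por* was at 33.1 and 28.5 against 30.8 and 33.1 CPM and did not pass. The endothelial cells of control XY replicate 1 had 15.3 CPM of *Hsd3b1*, and the part of free RNA in this difference was not tested.

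Of 7 steroid receptor genes 4 rose and 2 fell, with a median of 0.60, and 2 rose without either control XY library or without control XX replicate 1. The estrogen receptor gene *Esr1* was at 34.9 and 26.7 CPM against 14.4 and 14.8 CPM (1.15 ± 0.12, adjusted p = 5.0e-04). *Vdr* rose to 5.18 and 4.54 from 0.610 and 1.30 CPM, and *Pgr* was called at 2.82 and 2.66 against 0.823 and 0.826 CPM, a call lost without any 1 of the 4 control libraries. *Esr2* fell to 1.83 and 1.41 from 3.77 and 4.69 CPM.

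The share of cells with transcripts of dividing cells was lowest in the ovary. After thinning, 22.0% and 23.8% of the stromal cells had at least 2 UMIs of *Mki67* plus *Top2a*. Gated cells of control XY reached 30.5% and 33.2%, and those of dKO XY 39.2% and 47.9%. Without thinning the ovary shares were 31.7% and 32.6%. The groups did not overlap, but 2 libraries against 2 cannot pass the threshold in an exact test, so none was made. Of 16 G2 and M phase genes 11 fell and none rose (median -0.47), with *Cenpe*, a kinesin of the mitotic spindle, at 88.3 and 86.9 against 178 and 172 CPM (-0.92 ± 0.10, adjusted p = 6.0e-04) and *Top2a* at 261 and 230 against 403 and 426 CPM, a call lost without control XY replicate 2. Only 2 of the 16 fell without either control XY library and 4 without control XX replicate 1. Of 17 S phase genes 1 rose and 4 fell (median -0.15). None of these 5 calls was left without control XY replicate 2, while 1 fell without control XY replicate 1 and 2 without control XX replicate 2, with no rise in either.

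Among 11 cyclins and inhibitors 4 rose and none fell, with a median of 0.29, and 1 fell without control XX replicate 2. *Cdkn1c*, an imprinted inhibitor of cyclin-dependent kinases, was at 438 and 405 CPM in the stroma of the ovary and 97.8 and 106 CPM in control XY (2.13 ± 0.10, adjusted p = 1.3e-05). *Cdkn1b* was at 55.9 and 52.2 against 56.3 and 48.8 CPM. *Cdk6* rose to 45.6 and 36.6 from 13.8 and 15.8 CPM and *Cdkn1a* to 10.7 and 10.4 from 2.99 and 4.54 CPM. Pre-granulosa cells of the ovary had 1720 and 1853 CPM of *Cdkn1c* and endothelial cells 386 and 332 CPM.

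Markers of other cell types moved with the comparison. Cells holding at least 3 endothelial, immune or pericyte UMIs were left out in an alternative fit, described below. Beyond that, the part of other cells or of their free RNA in the results above was not tested. Of 9 granulosa genes tested 7 were higher and 2 lower in the ovary, and the 10 listed summed to 347 and 208 CPM in the control XX stroma, 114 and 139 CPM in control XY and 323 and 488 CPM in dKO XY. *Kctd14* was at 208 and 125 CPM in the stroma, 1754 and 1638 CPM in pre-granulosa cells and 33.5 and 7.11 CPM in endothelial cells of the ovary. The 10 Sertoli genes were all lower and summed to 20.3 and 14.9 CPM against 228 and 382 CPM in control XY, with *Sox10* at 0. The 9 germ cell genes (5 higher, 2 lower) summed to 25.7 and 12.7 against 6.30 and 5.12 CPM. The 8 epithelial genes (5 higher, none lower) summed to 25.7 and 12.8 against 5.81 and 9.33 CPM. Without control XY replicate 1 or without control XX replicate 1 only 2 epithelial genes were higher. Without either control XY library 1 granulosa gene and no germ cell gene was lower, and no germ cell gene was lower without control XX replicate 2.

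The 8 immune genes (7 lower, none higher) summed to 4.54 and 6.15 CPM in the ovary against 64.7 and 42.7 CPM, with *Ptprc* at 0 and 0.0301 CPM. Some of these immune calls were lost without cells holding at least 3 endothelial, immune or pericyte UMIs, a limit that itself used immune genes. The 7 endothelial genes summed to 56.4 and 66.4 against 60.0 and 89.0 CPM, with *Kdr* higher (38.8 and 38.5 against 5.80 and 15.49 CPM) and *Cdh5* lower, and the call of *Kdr* was lost without control XX replicate 2. Of 7 pericyte genes 3 were higher and 2 lower (sums of 90.4 and 88.9 against 120 and 129 CPM), of 7 smooth muscle genes 1 and 1 (666 and 807 against 1006 and 897 CPM), and of 5 mesonephric tubule genes tested 1 and none (the 6 listed summed to 5.13 and 4.62 against 3.38 and 4.10 CPM). These counts of 0 to 3 moved by 1 gene in several fits with 1 library left out. None of 7 erythroid genes passed, with sums of 439 and 102 against 52.2 and 167 CPM, but 2 were higher without control XX replicate 2 and 1 without control XY replicate 2 or either dKO XY library. The 10 immediate early and stress genes had no call between the 2 controls, although 2 were lower when either dKO XY library was left out of the fit, and summed to 3113 CPM in dKO XY replicate 2 against 8231 to 10139 CPM in the other 5 libraries.

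Against dKO XY, 26.4% of the 17229 genes were called, 2057 higher (11.9%) and 2500 lower (14.5%) in the stroma of the ovary. Between dKO XY and control XY gated cells 6.56% were called, 672 higher (3.90%) and 458 lower (2.66%) in dKO XY. The 3 comparisons share libraries, so values are set side by side. *Crabp1* was at 93.9 and 88.1 CPM in the ovary, with 9.42 and 5.02 CPM in dKO XY cells and 2.62 and 3.38 CPM in those of control XY. All 3 differences were called, but that between dKO XY and control XY (adjusted p = 0.041) was lost in 5 of the 6 fits with 1 library left out (0.056 to 0.208). *Tgfbi* was at 44.2 and 39.8 CPM in dKO XY, called above control XY (log2 fold change 1.00, adjusted p = 0.0089, and 0.059 without control XY replicate 1) and below the ovary. *Sp5* was at 3.40 and 2.22 CPM in dKO XY (4.92 above control XY on the log2 scale, adjusted p = 0.0027). *Axin2* was at 28.9 and 33.8 CPM and *Lef1* at 15.7 and 19.3 CPM in dKO XY, both called above control XY and not apart from the ovary. The call of *Axin2* above control XY was lost without dKO XY replicate 2 or without either control XY library (adjusted p = 0.085 to 0.134). Among the markers of other cell types, those of germ, granulosa and mesonephric tubule cells rose most often in dKO XY against control XY. Leydig genes had 2 higher, Sertoli genes 2 higher and 1 lower, and epithelial and erythroid genes 1 higher each. Endothelial genes had 1 lower, and immune, pericyte and smooth muscle genes had no call. All 9 germ cell genes were called higher (4 without control XY replicate 2, and 5 without control XY replicate 1 or without dKO XY replicate 2), with sums of 29.4 and 37.0 against 6.30 and 5.12 CPM. Of 9 granulosa genes 7 were higher (4 without control XY replicate 1 or without dKO XY replicate 2) and of 5 mesonephric tubule genes 3 (1 without dKO XY replicate 2 and none without either control XY library). The germ cell set held 344 and 295 cells in dKO XY and 12 and 6 in control XY. The pre-granulosa set held 152 and 106 cells in dKO XY and 6 and 1 in control XY. *Sp5* was at 90.5 and 106 CPM in pre-granulosa cells of the ovary, and the part of other cells or their free RNA in the dKO XY values was not tested. *Prrx1* was at 16.2 and 14.8 CPM and *Notum* at 0.335 and 0.269 CPM in dKO XY, each below the ovary and not called apart from control XY.

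Genes that were low in the ovary were intermediate in dKO XY in several cases. These are levels of summed cells. The study's own clusters hold more stroma cells and fewer interstitial cells in dKO XY than in control XY. The part of this mix in the intermediate levels was not tested. *Inhba* was at 167 and 175 CPM in dKO XY, between the 25.9 and 20.9 CPM of the ovary and the 430 and 410 CPM of control XY, with all 3 differences called. *Cxcl12* was at 427 and 435 CPM, *Sostdc1* at 140 and 108 CPM and *Prlr* at 45.5 and 57.1 CPM in dKO XY, with the same calls. Between dKO XY and control XY the call of *Cxcl12* was lost without control XY replicate 1 or without either dKO XY library (adjusted p = 0.055 to 0.097) and that of *Sostdc1* without control XY replicate 1 (0.059). *Hhip* was at 41.7 and 49.1 CPM and *Ptch1* at 214 and 219 CPM in dKO XY, not called apart from control XY. *Cbln1* was at 97.1 and 130 CPM in dKO XY and 73.0 and 81.3 CPM in control XY (adjusted p = 0.062). *Fgf7* was at 0.226 and 0.114 CPM in dKO XY, called below control XY, and was at 0.146 and 0.165 CPM in the ovary (adjusted p = 0.96). Without control XY replicate 1 only 197 genes were called between dKO XY and control XY, and without replicate 2 only 336, against 1130 with both, and without dKO XY replicate 2 there were 582. Between the ovary and dKO XY 2902 genes were called without control XX replicate 2, against 4557. The dKO XY libraries differed in the 10 immediate early and stress genes, which summed to 9425 CPM in replicate 1 and 3113 CPM in replicate 2. None was called with both, but with replicate 2 alone 9 were higher in the ovary than in dKO XY and 7 lower in dKO XY against control XY, and with replicate 1 alone none. Their part in the other dKO XY values was not tested.

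By list, the ovary against dKO XY gave 12 of 37 WNT genes higher and 7 lower (median 0.26). Of 32 *Hox* genes 17 were higher and 4 lower (1.11), and of 16 G2 and M phase genes 14 were lower (-0.65). Of 15 hedgehog genes 2 were higher, close to the share of all tested genes, and 7 lower (-0.32). Over all tested genes 11.9% were higher and 14.5% lower. Fewer WNT genes were called higher when any library was left out, and the number of hedgehog genes called higher moved both ways. Of 45 matrix proteins 18 were higher and 11 lower, and of 29 collagens 10 were higher and 10 lower. Fewer matrix proteins were called higher without dKO XY replicate 2. *Col1a1* was at 914 and 768 CPM in dKO XY, below the 1828 and 2250 CPM of the ovary (log2 fold change 1.36, adjusted p = 0.0010). Of the 9 granulosa genes 3 were higher in the ovary than in dKO XY and 2 lower, with none higher without dKO XY replicate 1 and 1 without dKO XY replicate 2 or without control XX replicate 1, and *Kctd14* was at 167 and 307 CPM in dKO XY against 208 and 125 CPM.

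The 4327 stromal cells fell into 5 clusters, which are described by their leading genes with no test, since the same genes formed them. Cluster 1 held 62.8% of the cells of replicate 1 and 49.5% of those of replicate 2. Its leading genes, among them *Plac8*, *Ass1*, *Akr1cl*, *Fmo1*, *Dhrs7*, *Kcnk2* and *Kcnk3*, were only moderately above the rest, as *Kcnk2* at 99.95 and 89.1 CPM against 44.8 and 36.9 CPM. Cluster 3 held 13.96% and 23.2% of the cells and was led by *Smoc2*, *Ntrk3*, *Angptl7*, *Ndnf*, *Crabp2*, *Pdlim3*, *Col14a1* and *Egfl6*. It had 482 and 739 CPM of *Lum* against 90.8 and 103 CPM in cluster 1, and 3492 and 4042 CPM of *Col1a1* against 1645 and 1767 CPM. Cluster 3 had the lowest *Kctd14* of the 3 large clusters (56.0 and 24.7 CPM against 249 and 173 CPM in cluster 1), while *Wt1* was at 271 and 255 against 273 and 257 CPM.

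Cluster 2, with 21.1% and 24.2% of the cells, was led by mitotic genes such as *Ube2c* (535 and 564 CPM against 20.4 and 27.6 CPM), *Nusap1*, *Hmmr* and *Ccnb1*, and 96.1% of its cells had at least 2 UMIs of *Mki67* plus *Top2a* without thinning. *Crabp1* was at 135 and 109 CPM there. Cluster 4, of 72 cells, was led by pericyte genes, with *Rgs5* at 456 and 249 CPM and *Pdgfra* at 6.16 and 36.7 CPM. Cluster 5, of 49 cells with a median of 38914 UMIs, was led by endothelial genes such as *Cdh5* (172 and 248 CPM against 1.51 and 0.613 CPM) and held 812 and 364 CPM of *Kctd14*. Both small clusters thus go against the label. Without every cell that held at least 3 endothelial, immune or pericyte UMIs, an alternative chosen after seeing the data, the comparison of the controls called 4009 genes, 3727 of them shared with the 4041. All 5 clusters held cells of both ovary libraries.

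**Figure D5:**
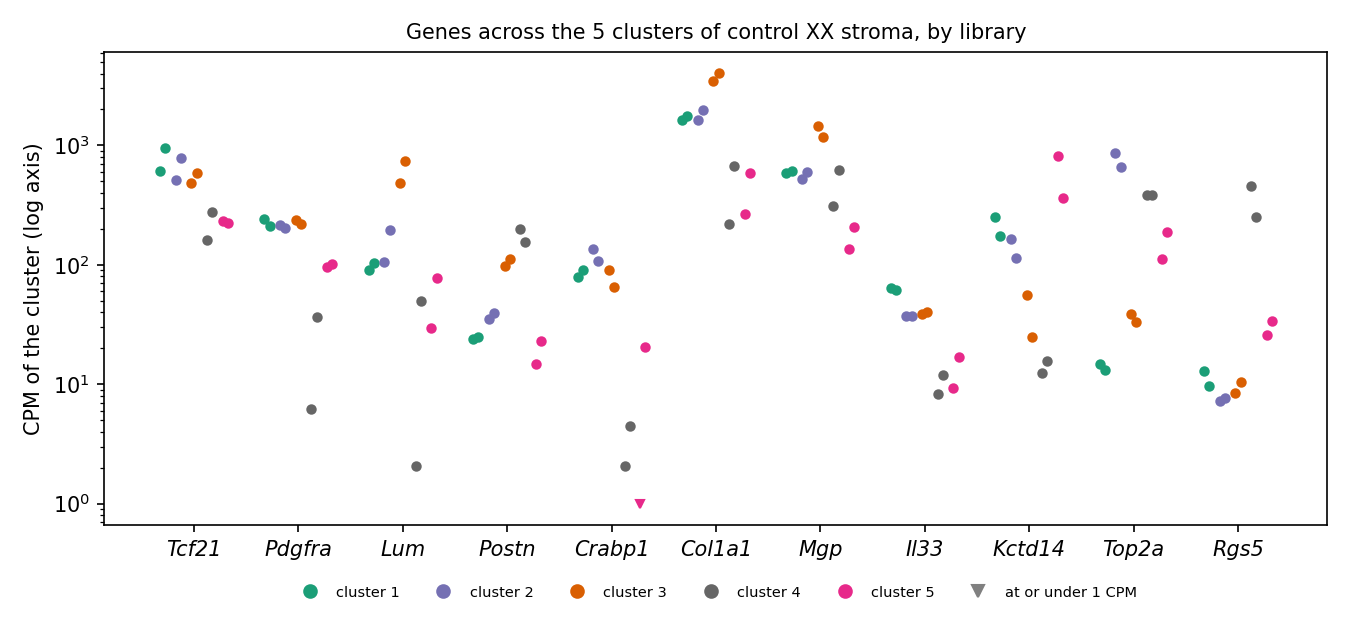
CPM (log axis) of 11 genes in the 5 clusters of the control XX stroma, with 1 point for each of the 2 libraries and a triangle for values at or under 1 CPM. Cluster 3 is highest for *Lum*, *Col1a1* and *Mgp*, cluster 2 for *Top2a*, cluster 4 for *Rgs5*, and cluster 5 for *Kctd14*.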

How the data were processed

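The authors deposited untransformed counts of UMIs, by gene and barcode, 1 matrix per library, made with Cell Ranger on mm10 per the labels. Cells with over 2500 and under 9000 genes, under 25% *mt-* and under 20% *Hbb-* UMIs were kept. UMIs of gated cells were summed per library and tested with edgeR 4.0.16 (filterByExpr, TMM, quasi-likelihood test, R 4.3.3) in 1 fit of all 6 libraries with group as the only term. A gene was called at an adjusted p under 0.05, and the SE is the log2 fold change over the square root of F. On simulated data for the comparison of the controls, 50.75% of 67 genes with 1.5-fold, 95.52% of 67 with 2-fold and 100% of 66 with 4-fold changes were recovered. In that simulation 9.392% of calls were false. The changed genes were drawn only from those above a level limit and were far fewer than the genes called here. The rates therefore do not cover genes at low levels.

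Pre-granulosa cells had at least 300 CPM of *Foxl2* plus *Fst*, and endothelial cells at least 3 UMIs of *Pecam1* plus *Cdh5*. Immune cells had at least 3 UMIs of *Ptprc*, *Csf1r* and *Fcer1g* together. All had under 3 UMIs of *Tcf21* plus *Pdgfra* and met the limit of no other type, germ, epithelial, pericyte and Leydig cells included. The endothelial and immune sets thus left out cells over the granulosa or steroidogenic limit. For control XY, endothelial CPM values are given for replicate 1 only (80 cells, against 113 in replicate 2). Clusters were made with the Leiden method in scanpy 1.11.5 (resolution 0.3). Scrublet marked 0 to 129 cells per library, so doublets were kept and the 8% highest scores left out as an alternative. Exact intervals cover counting error only. The named genes were the gate genes and markers, the 12 largest rises and falls at an edgeR average log2 CPM of 5 or more without *Xist*, *Tsix*, Y-linked and gate genes, the 5 largest changes and 5 highest levels of each of 31 lists, the 15 most enriched genes and the leading 8 of each cluster, plus list members chosen after their values were seen. Some genes that this rule names are not reported here. The members, lists and tests were chosen with earlier results of these data known. Upstream sequences are from RefSeq on GRCm38.p6. Replicate numbers did not pair the libraries (correlations of deviations 0.096, -0.197 and -0.076). Alternatives were DESeq2 1.42.0, other filters, scalings, gates and cell sets, a replicate block and each library left out.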

Additional observations from a re-analysis of the deposited data

How the results depend on the processing

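Of 225 genes named by rule or in the text and called between the controls, none changed direction in the alternatives run (DESeq2, no filter, total UMIs, 2 groups only, replicate block, other gates and cell sets, libraries left out), 165 kept the call in all of them and 60 lost it in at least 1. Of the genes in the text, 137 were called between the controls and 19 of them lost the call with 1 library left out, against 14 of 132 between the ovary and dKO XY and 51 of 61 between dKO XY and control XY. Counts of called genes between control XX stroma and control XY gated cells ran from 2306 to 4161 with 1 library left out, against 4041, between control XX stroma and dKO XY from 2902 to 3868, against 4557, and between dKO XY and control XY from 197 to 1109, against 1130. The last fell to 687 with the replicate block and 627 where *Lum* or *Postn* was also required, and with DESeq2 was 1645. The block gave 3222 and 3559 calls in the other comparisons. With the numbers of the control XX libraries exchanged, a crossed replicate block chosen after seeing the data, the counts were 5466, 5961 and 1922. The cause of these shifts was not tested. With the level limit on the mean of the log2 CPM values, chosen after seeing the data, 5 of the 12 largest rises and 3 of the 12 largest falls were shared. Total UMIs in place of TMM moved the median of all genes to -0.08 and the share of higher calls between the controls from 46.4% to 38.4%.

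The mean share of control XX stroma cells with cycling UMIs, 22.9%, was 20.8% without the highest doublet scores, 32.2% with no thinning and 19.5% at 3 UMIs, and 22.0 to 23.8% with 1 library left out. The gated share was 27.3 to 60.1% by library. At a resolution of 0.6 there were 8 clusters in place of 5. With 2 libraries per group, small changes were the ones missed in the simulation, which changed no genes at low levels. Free RNA limits what low levels show.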

Other observations

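Imprinted genes, several of which control fetal growth, were listed apart. Of 21 tested, 3 rose and 6 fell in the stroma of the ovary against control XY, with a median log2 fold change of -0.17. The share of all tested genes was 10.9% higher and 12.6% lower, so the number that rose was near the background. *H19* was at 858 and 782 CPM against 258 and 281 CPM (1.68 ± 0.10 SE, edgeR adjusted p = 3.7e-05) and *Igf2* at 23.3 and 28.1 against 11.2 and 9.84 CPM (1.37 ± 0.17). *Meg3* was at 1300 and 1368 against 2338 and 2530 CPM (-0.79 ± 0.12, adjusted p = 0.0028), and dKO XY gated cells had 1334 and 1265 CPM. *Asb4* fell to 4.95 and 5.49 from 39.6 and 59.7 CPM, and endothelial cells of the ovary had 86.2 and 97.7 CPM of it. *Mest* fell to 290 and 347 from 760 and 659 CPM.

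*Wt1*, a zinc finger factor of gonadal progenitors, was chosen after its values were seen. It was at 268 and 247 CPM in the stroma of the ovary, and was found in 75.1% and 72.2% of thinned cells. Gated cells of control XY held it in 17.2% and 19.98%, and those of dKO XY in 31.7% and 29.2%. Endothelial cells held it in 24.3% and 23.8% of thinned cells in control XX and 26.3% and 35.4% in control XY, above the gated cells of control XY. Immune cells held it in 10.7% and 0% of 28 and 43 thinned cells in control XX and in 1.77% and 3.57% of 113 and 84 in control XY, below the gated cells of the same libraries. The part of free RNA in these shares was not tested.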
